A study of Mus musculus with 12 samples.

Results

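The intracellular arm of T cell receptor signaling was examined through 42 genes in CD8+ T cells sorted from mouse tumors. The genes were chosen by function, with earlier results of these data known. The list held proximal kinases, adaptors, phospholipase, protein kinase C, NFAT and NF-kB components and negative regulators. Genes were retained with 10 or more counts in at least 3 libraries. All 42 of the 42 listed genes met this rule, out of 52636 identifiers in the table, and the lowest count of any of them in any library was 22 (Sh2d1a). Female A2AR eGFP reporter mice on a C57BL/6 background, aged 6 to 16 weeks, were injected subcutaneously with 500000 AT-3 ova cells, a mouse mammary carcinoma line made to express ovalbumin. The reporter is the transgene Tg(Adora2a-EGFP)EP141Gsat, an artificial chromosome that carries EGFP under the regulatory sequence of Adora2a, the gene of the adenosine receptor A2AR, and all 12 libraries carried it. Tumors were taken at day 21 from mice left untreated (NT) or given anti-PD-L1, an antibody that blocks the checkpoint ligand PD-L1, at days 14 and 18. CD8+ cells were sorted into GFP+ and GFP- fractions, which gave 3 libraries for each of NT GFP-, NT GFP+, anti-PD-L1 GFP- and anti-PD-L1 GFP+. Each library was pooled from 3 mice and made by QuantSeq, which counts the 3′ ends of transcripts. The comparisons asked whether the signaling genes differed between A2AR-reporter-positive and reporter-negative cells and between treated and untreated tumors. No statement is made on protein or phosphorylation, which these libraries do not measure.

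When the T cell receptor binds its antigen, the Src family kinases Lck and Fyn phosphorylate the CD3 chains, which recruit and activate the kinase Zap70. Zap70 phosphorylates the membrane adaptor Lat, on which Grb2, the Gads adaptor encoded by Grap2, Slp-76 (Lcp2) and phospholipase C gamma 1 (Plcg1) assemble, and second messengers from there reach Ras, protein kinase C theta, NF-kB and calcineurin with NFAT. Phosphatases, Cbl ubiquitin ligases and diacylglycerol kinases restrain these steps, and A2AR, which raises cyclic AMP, is known to oppose them in T cells.

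Total counts ranged from 11292699 to 19023900 per library. Libraries KT13 (NT GFP+) and KT21 (anti-PD-L1 GFP+) stood apart, with a median Spearman correlation to the other libraries of 0.941 and 0.935 against 0.967 to 0.977 for the other 10, so the tests were run over 12 libraries and again over the 10 that remain without these. Adora2a, in CPM (TMM-scaled read counts relative to the library total), was at 60.1 to 111 CPM in the 6 GFP+ libraries and at 19.7 to 34.6 CPM in the 6 GFP- libraries. The summed level of 6 T cell markers (Cd3d, Cd3e, Cd3g, Trac, Cd8a and Cd8b1) was 3654 to 3888 CPM in NT GFP-, 3019 to 3720 in NT GFP+, 4195 to 4396 in anti-PD-L1 GFP- and 3729 to 5086 in anti-PD-L1 GFP+, with KT13 and KT21 at the top of both GFP+ ranges. Markers of other cells were present at lower sums. The NK cell marker Klrb1c was at 38.0 to 51.2 CPM in the GFP+ libraries and at 13.8 to 30.3 CPM in the GFP- libraries, without overlap. Klre1 overlapped, at 41.97 to 189 CPM in GFP+ and 92.8 to 188 CPM in GFP- libraries. KT21 and KT13, both GFP+, were its lowest libraries. Ncr1 overlapped in NT, but was at 3.54 to 5.30 CPM in anti-PD-L1 GFP+ and 1.21 to 2.72 CPM in anti-PD-L1 GFP-. The 3 NK cell markers together summed to 116 to 175, 126 to 186, 174 to 204 and 91.7 to 233 CPM in NT GFP-, NT GFP+, anti-PD-L1 GFP- and anti-PD-L1 GFP+. The 5 tumor epithelium markers summed to 231 to 324, 210 to 301, 201 to 304 and 135 to 198 CPM, mostly from Cdh1. The 12 macrophage markers summed to 154 to 227, 206 to 285, 78.1 to 134 and 86.1 to 170 CPM in that order of groups, with 1 of them at 0 throughout anti-PD-L1 GFP+, and the 5 B cell markers to 100 to 110, 145 to 172, 71.1 to 84.9 and 94.5 to 129 CPM, with 1 or 2 of them at 0 in each group. The part of these cells in the results was not tested, and in such bulk samples fewer cells of a type and less RNA per cell cannot be told apart. Because each library is a pool of mice, p-values measure the spread between these pools.

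Of the signaling genes, 3 passed the test between GFP+ and GFP- cells once KT13 and KT21 were left out. The Lat complex adaptors Lat and Grap2 were lower, and the Tec family kinase Txk was higher, in GFP+ cells. Over 10 libraries, averaged over treatment, the differences on the log2 scale were -0.51 (SE 0.0827) for Lat, -0.49 (SE 0.11) for Grap2 and 0.57 (SE 0.107) for Txk, with adjusted p = 0.00142, 0.0223 and 0.00528 in edgeR (quasi-likelihood F test, p-values corrected over all genes by Benjamini-Hochberg). Over all 12 libraries none of them passed: the same differences were -0.39 (adjusted p = 0.269), -0.40 (0.333) and 0.48 (0.184). By treatment, Txk passed over 10 libraries, lower after anti-PD-L1 by -0.45 on the log2 scale (edgeR adjusted p = 0.0322), but not over 12 (adjusted p = 0.293). It passed in 4 of 10 fits that left out a further library.

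In the comparison of GFP+ with GFP- cells averaged over treatment, 3 of 42 signaling genes passed over 10 libraries, where 1.08% of all 14747 genes tested did. Over 12 libraries 0 of 42 passed in edgeR, where 0.31% of 14173 genes did, and 5 of 42 had an unadjusted p under 0.05, against 8.18% of all genes. DESeq2 on the 12 libraries passed 1 of the 42, Txk, where 1.11% of all genes passed. DESeq2 over 10 libraries passed the same 3 genes as edgeR, where 1.74% of all genes passed. limma voom, which keeps all 12 libraries and gives each a quality weight (0.348 for KT13, 0.229 for KT21 and 0.718 to 1.89 for the others), passed the same 3 genes, where 0.889% of all genes passed. The median log2 difference of the 42 genes was -0.07 over 12 libraries and -0.01 over 10, beside 0.00 for all genes tested in either fit.

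**Figure D1:**
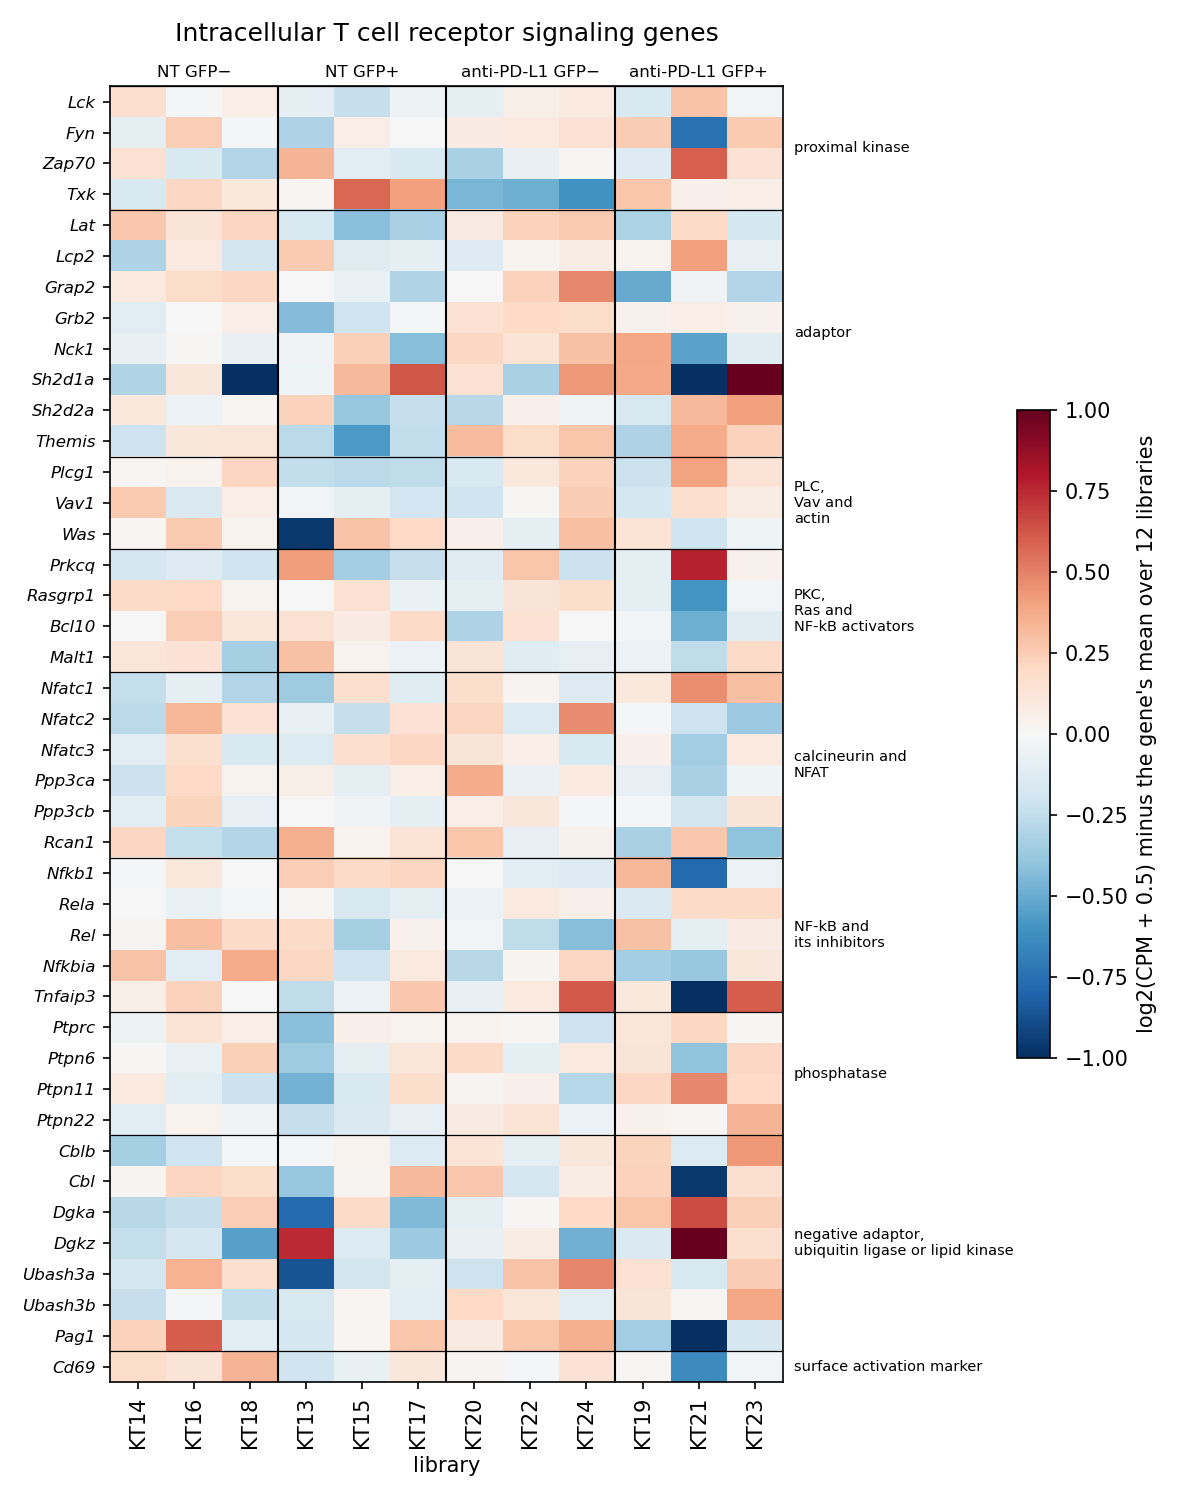
Level of the 42 genes in the 12 libraries, as log2(CPM + 0.5) minus the gene's mean over the libraries, in columns by group and rows by role, with the color scale ending at -1 and 1. KT21 was the lowest library for 14 of the 42 genes and the highest for 12, so that its column is the most deeply colored. Over all genes tested KT21 was the lowest library for 18.6% and the highest for 16.4%.

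Lat encodes the transmembrane scaffold that links Zap70 to phospholipase C and Ras, and lies at chr7:126363824-126369570 on the minus strand of GRCm38. In the order of library code, Lat was at 233, 212 and 225 CPM in NT GFP-, at 175 (KT13), 145 and 155 CPM in NT GFP+, at 206, 227 and 233 CPM in anti-PD-L1 GFP- and at 156, 221 (KT21) and 172 CPM in anti-PD-L1 GFP+. The GFP+ values were below all GFP- values in NT, KT13 included, and in the treated groups KT21 lay within the GFP- range while the other 2 GFP+ libraries lay below it. The log2 difference between GFP+ and GFP- was -0.50 in NT (SE 0.156, edgeR adjusted p = 0.596) and -0.28 after anti-PD-L1 (SE 0.156, adjusted p = 0.993) over 12 libraries. Over 10 libraries it was -0.57 in NT (SE 0.117, edgeR adjusted p = 0.0345) and -0.44 after anti-PD-L1 (SE 0.117, adjusted p = 0.226). Lat was thus the 1 signaling gene of 42 that passed within NT over 10 libraries, where 0.339% of all genes did. The NT call was made in 5 of 10 fits that each left out a further library. It was lost without KT14, KT15, KT17, KT18 or KT22 (edgeR adjusted p up to 0.336). The averaged difference of Lat passed in 10 of 10 such fits, but in 0 of 12 that left out only 1 of the 12 libraries. Relative to the summed T cell markers, a scaling chosen after these sums were seen, Lat was at 60.0, 57.2 and 61.7 counts per 1000 marker counts in NT GFP-, at 47.0, 46.0 and 51.4 in NT GFP+, at 49.2, 52.1 and 53.0 in anti-PD-L1 GFP- and at 41.8, 43.5 and 41.2 in anti-PD-L1 GFP+. On this scale the GFP+ libraries lay below the GFP- libraries in both treatments with all 12 libraries included. The averaged log2 difference of Lat on this scale was -0.30 (SE 0.0955, edgeR adjusted p = 0.263) over 12 libraries and -0.30 (SE 0.0864, adjusted p = 0.041) over 10, where the median of all genes was 0.11 and 0.20.

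Grap2 encodes Gads, the adaptor that bridges Lat and Slp-76, at chr15:80572594-80652854 on the plus strand. It was at 65.3, 69.7 and 70.6 CPM in NT GFP-, at 61.0 (KT13), 58.5 and 49.7 CPM in NT GFP+, at 60.8, 71.7 and 85.5 CPM in anti-PD-L1 GFP- and at 43.1, 59.8 (KT21) and 49.9 CPM in anti-PD-L1 GFP+. Every GFP+ library lay below every GFP- library of its treatment. Grap2 was the 1 of 42 signaling genes with no overlap in the same direction in both treatments over 12 libraries, where 1.85% of all genes had none. Over 10 libraries there were 3 such genes, Lat, Grap2 and Txk, where 4.7% of all genes had no overlap. The log2 difference of Grap2 was -0.28 in NT (SE 0.171, edgeR adjusted p = 0.881) and -0.51 after anti-PD-L1 (SE 0.171, adjusted p = 0.97) over 12 libraries, and -0.34 (SE 0.155, adjusted p = 0.503) and -0.65 (SE 0.157, adjusted p = 0.141) over 10. The averaged call over 10 libraries was lost without KT17, KT19, KT22 or KT24, with adjusted p up to 0.148.

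Txk, a Tec family kinase of T cells that acts near phospholipase C, lies at chr5:72695978-72752777 on the minus strand. It was at 44.8, 57.4 and 53.5 CPM in NT GFP-, at 50.3 (KT13), 74.4 and 66.2 CPM in NT GFP+, at 36.1, 35.3 and 32.4 CPM in anti-PD-L1 GFP- and at 60.5, 51.6 (KT21) and 52.0 CPM in anti-PD-L1 GFP+. The treated GFP- libraries were below the other 9 libraries, and all 3 treated GFP+ libraries, KT21 included, lay above them. In NT, KT13 lay within the GFP- range and the other 2 GFP+ libraries above it. The log2 difference between GFP+ and GFP- was 0.29 in NT (SE 0.171, edgeR adjusted p = 0.873) and 0.66 after anti-PD-L1 (SE 0.172, adjusted p = 0.498) over 12 libraries. Without KT13 and KT21 it was 0.44 in NT (SE 0.15, edgeR adjusted p = 0.314) and 0.70 after anti-PD-L1 (SE 0.152, adjusted p = 0.0564). The averaged difference by GFP passed in 10 of 10 fits that each left out a further library. It passed in 0 of 12 fits that left out only 1 of the 12 libraries. The 2 GFP differences did not differ detectably from each other. The interaction of Txk over 12 libraries was 0.37 (approximate 95% interval -0.11 to 0.84, edgeR adjusted p = 1). Over 10 it was 0.26 (approximate 95% interval -0.16 to 0.69, edgeR adjusted p = 1). These intervals take a normal multiple of the SE, which is narrower than the F test would give.

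**Figure D2:**
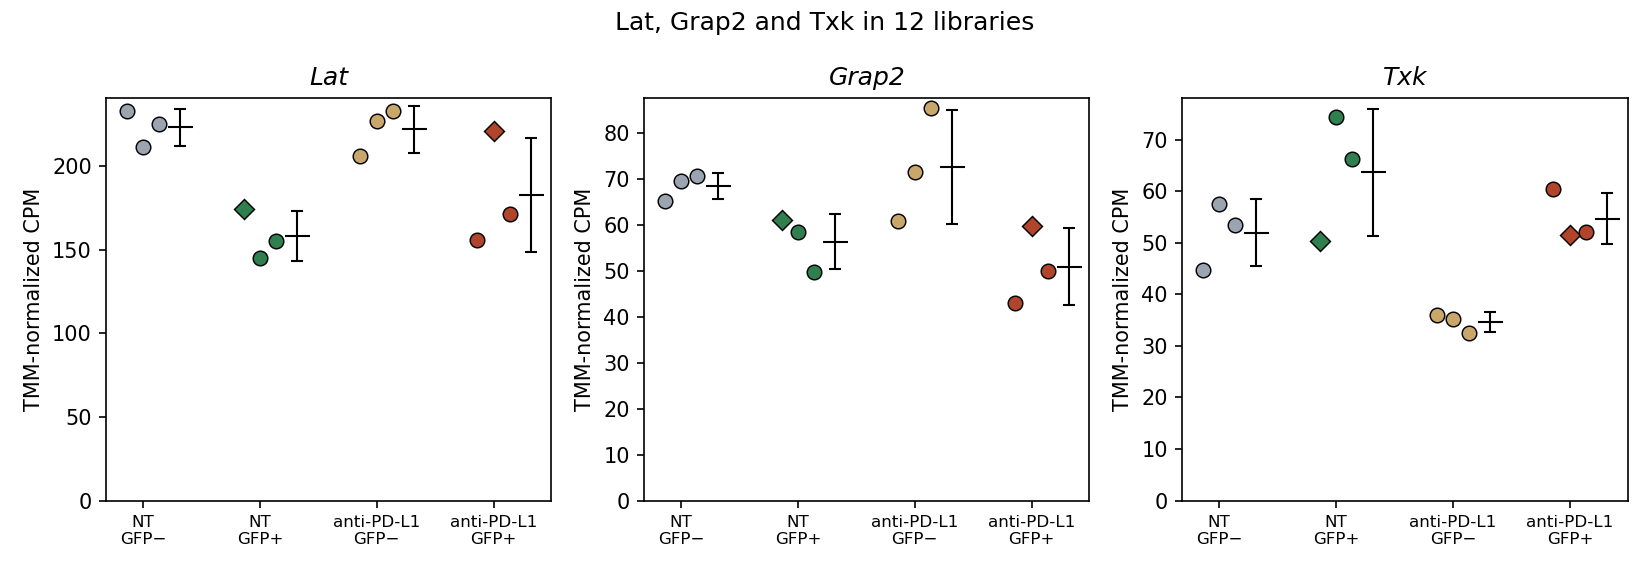
TMM-normalized CPM of Lat, Grap2 and Txk in each library by group, on axes that start at 0. Circles are libraries, diamonds mark KT13 and KT21, and lines give the mean and SD of 3 libraries. For Lat the diamond of KT21, at 221 CPM, sits within the GFP- range, and for Txk the 3 treated GFP- libraries sit at 32.4 to 36.1 CPM.

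For Lat, Grap2 and Txk, which passed by GFP over 10 libraries but not over 12, the promoter sequence is shown. It covers the 250 bases before the RefSeq transcription start (GRCm38.p6), on the strand of the gene, 5′ to 3′. Matches to the motifs below are in capitals, except E-box matches, which are left in lower case.
Lat, chr7:126369569-126369818, minus strand: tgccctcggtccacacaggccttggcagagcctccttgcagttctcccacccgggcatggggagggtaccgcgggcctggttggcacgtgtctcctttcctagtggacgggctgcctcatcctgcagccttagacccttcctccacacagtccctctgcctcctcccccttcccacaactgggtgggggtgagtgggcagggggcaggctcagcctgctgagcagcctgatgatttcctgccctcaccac
Grap2, chr15:80623233-80623482, plus strand: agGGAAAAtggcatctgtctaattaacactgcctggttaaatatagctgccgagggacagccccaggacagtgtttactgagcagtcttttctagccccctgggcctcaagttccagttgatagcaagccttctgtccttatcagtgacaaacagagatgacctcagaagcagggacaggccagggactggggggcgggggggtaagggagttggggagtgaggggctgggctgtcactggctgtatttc
Txk, chr5:72752778-72753027, minus strand: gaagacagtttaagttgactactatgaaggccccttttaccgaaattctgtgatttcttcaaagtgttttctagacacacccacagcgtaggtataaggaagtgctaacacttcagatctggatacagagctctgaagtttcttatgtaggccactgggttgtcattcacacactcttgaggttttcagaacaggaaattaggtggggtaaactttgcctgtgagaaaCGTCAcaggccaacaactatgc
The Grap2 window begins from the RefSeq start, which lies 50889 bases inside the gene as GENCODE draws it. Txk has 2 RefSeq starts, of which the one at the GENCODE start is shown. GC content was 65.2% for Lat, 54.4% for Grap2 and 42.8% for Txk, beside a median of 52.4% over 32851 windows. Both strands were searched for ETS (CCGGAA), RUNX (TGTGGT), E-box (CANNTG), NFAT (GGAAAA), AP-1 (TGANTCA), the core of the cyclic AMP response element (TGACG), STAT (TTCNNNGAA) and NF-kB motifs. These letters were found in 12%, 14%, 66.2%, 20.4%, 6.75%, 17.8%, 7.02% and 7.25% of all windows. The Lat window held 2 E-box matches, at 166 to 161 and 75 to 70 bases before the start. The Grap2 window held an NFAT match at 248 to 243 bases and 2 E-box matches, and the Txk window a core of the cyclic AMP element, read on the other strand, at 22 to 18 bases. Of the 42 genes, 34 had a window. In the same order of motifs, 3, 6, 26, 9, 2, 9, 3 and 4 of these genes held a match in any of their windows. A gene can have more than 1 window, whereas the shares above are per window, so the counts and shares cannot be compared directly. A match describes the letters only.

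Among the other proximal kinases, no test passed in any comparison over 12 or 10 libraries on the TMM scale, on which edgeR was run unless T cell marker scaling is named. Lck was at 312 to 447 CPM and Fyn at 59.0 to 119 CPM, with KT21 the highest library for Lck and the lowest for Fyn. Zap70 was at 140, 113 and 103 CPM in NT GFP-, at 160 (KT13), 116 and 113 in NT GFP+, at 101, 120 and 128 in anti-PD-L1 GFP- and at 116, 191 (KT21) and 139 in anti-PD-L1 GFP+. Both libraries that stood apart were the highest for Zap70, and its averaged log2 difference by GFP was 0.24 (SE 0.147, edgeR adjusted p = 0.702) over 12 libraries but 0.04 (adjusted p = 0.941) over 10.

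Of the 8 adaptors, Lat and Grap2 passed over 10 libraries and 6 passed in neither fit. Themis, an adaptor that tunes signaling during T cell development, was at 50.7, 63.4 and 64.0 CPM in NT GFP-, at 48.5 (KT13), 39.3 and 49.3 in NT GFP+, at 73.0, 66.6 and 71.4 in anti-PD-L1 GFP- and at 47.3, 76 (KT21) and 68.8 in anti-PD-L1 GFP+. NT GFP+ libraries were below NT GFP- libraries without overlap, whereas the treated groups overlapped. Its log2 difference by GFP in NT was -0.38 (SE 0.186, edgeR adjusted p = 0.854) over 12 libraries and -0.42 (SE 0.169, adjusted p = 0.425) over 10. Grb2, the adaptor that couples Lat to Ras activation, was at 144, 155 and 162 CPM in NT GFP-, at 115 (KT13), 135 and 153 in NT GFP+, at 172, 178 and 176 in anti-PD-L1 GFP- and at 159, 163 (KT21) and 160 in anti-PD-L1 GFP+. Treated libraries lay above untreated ones in both GFP fractions. Grb2 was the 1 of 42 genes with this separation over 12 libraries, where 1.59% of all genes had it, but its averaged log2 difference by treatment of 0.22 (SE 0.0991) had an edgeR adjusted p of 0.623, and it was 0.17 over 10 libraries (SE 0.0822, adjusted p = 0.441). Sh2d1a, which encodes the adaptor SAP, had the lowest counts of the list and spanned 1.53 to 8.95 CPM. It was at 3.34, 4.61 and 1.53 CPM in NT GFP- and at 4.09 (KT13), 5.44 and 6.77 in NT GFP+, and at 4.77, 3.28 and 5.88 in anti-PD-L1 GFP- and 5.66, 1.67 (KT21) and 8.95 in anti-PD-L1 GFP+. Its log2 difference by GFP in NT was 0.78 with an SE of 0.535 (edgeR adjusted p = 0.893) over 12 libraries and 0.94 with an SE of 0.431 (adjusted p = 0.506) over 10. Both treatments overlapped over 12 libraries. Lcp2 was at 78.4 to 129 CPM, Nck1 at 8.26 to 16.1 CPM and Sh2d2a, the T cell specific adaptor TSAd, at 171 to 297 CPM.

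**Figure D3:**
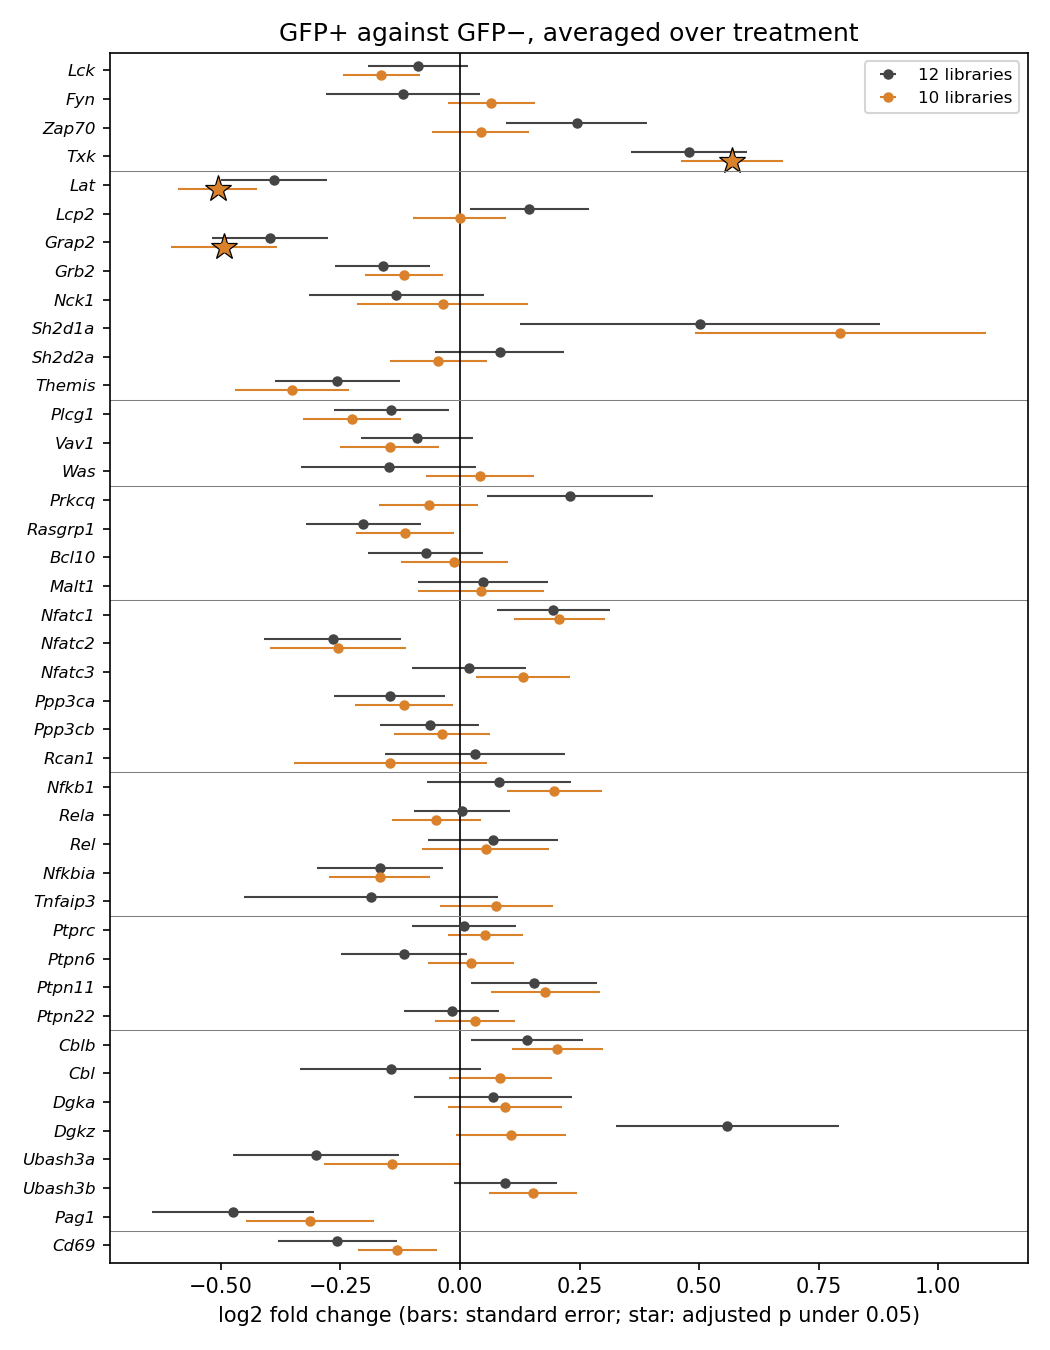
Log2 fold change of the 42 genes between GFP+ and GFP- cells, averaged over treatment, with bars of 1 standard error, over 12 libraries and over the 10 without KT13 and KT21. Stars mark the 3 genes with adjusted p under 0.05, which were Txk, Lat and Grap2 over 10 libraries, and Dgkz moved from 0.56 to 0.11 when both libraries were left out.

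Phospholipase C, Vav and actin genes gave no call over 12 or 10 libraries on the TMM scale. Plcg1 was at 91.8, 93.2 and 106 CPM in NT GFP-, at 76.5 (KT13), 75.4 and 76.2 in NT GFP+, at 81.7, 97.8 and 107 in anti-PD-L1 GFP- and at 78.4, 120 (KT21) and 100 in anti-PD-L1 GFP+. The 3 NT GFP+ libraries were close together and below all NT GFP- libraries, and the treated groups overlapped. The log2 difference by GFP in NT was -0.35 (SE 0.17, edgeR adjusted p = 0.854) over 12 libraries and -0.35 (SE 0.145, adjusted p = 0.448) over 10. In NT over 12 libraries Lck, Lat, Grap2, Themis and Cd69 were also lower in GFP+ libraries without overlap, and Nfkb1 was higher. The share of all genes that separate within a single treatment or GFP fraction was not counted. Such separations, here and for other genes, are therefore description only. Vav1, a guanine nucleotide exchange factor, was at 111 to 153 CPM, and Was, which directs actin branching, at 35.4 to 50.4 CPM apart from KT13 at 20.6 CPM. Plcg1 shares 379 exonic bases with Zhx3 on the opposite strand, which had at most 159 counts in a library against at least 861 for Plcg1. Of the 42 genes, 10 share exonic bases with another counted gene, 2 of them on the same strand, with microRNA genes at 0 counts.

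Among the genes that lead from protein kinase C to Ras and NF-kB, no test passed over 12 or 10 libraries on the TMM scale. Bcl10 was at 46.3, 54.9 and 50.2 CPM in NT GFP-, at 51.5 (KT13), 49.0 and 52.7 in NT GFP+, at 37.2, 51.4 and 46.0 in anti-PD-L1 GFP- and at 45.3, 32.8 (KT21) and 42.3 in anti-PD-L1 GFP+. Within GFP+ cells the treated libraries lay below the untreated ones, with a log2 difference of -0.35 (SE 0.17, edgeR adjusted p = 0.759) over 12 libraries and -0.21 (SE 0.173, adjusted p = 0.82) over 10. The GFP- groups overlapped. Rasgrp1, the exchange factor that activates Ras downstream of diacylglycerol, was at 64.2, 64.3 and 57.3 CPM in NT GFP-, at 56.1 (KT13), 62.5 and 53.6 in NT GFP+, at 52.2, 61.4 and 63.4 in anti-PD-L1 GFP- and at 52.6, 36.8 (KT21) and 54.9 in anti-PD-L1 GFP+. Rasgrp1 overlapped in every comparison, and KT21 was below all other libraries. Prkcq, protein kinase C theta, was at 109 CPM in KT13 and 138 CPM in KT21 against 63.9 to 98.3 CPM in the other 10. Malt1 was at 21.7 to 33.8 CPM.

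Calcineurin and NFAT genes gave no call in these fits either. Nfatc1 was at 97.0, 108 and 93.5 CPM in NT GFP-, at 89.5 (KT13), 129 and 105 in NT GFP+, at 129, 117 and 105 in anti-PD-L1 GFP- and at 124, 158 (KT21) and 142 in anti-PD-L1 GFP+. Its averaged log2 difference by treatment was 0.31 (SE 0.118, edgeR adjusted p = 0.515) over 12 libraries and 0.21 (SE 0.0958, adjusted p = 0.408) over 10, and the groups overlapped in both fractions. Nfatc2 was at 32.8, 50.1 and 44.0 CPM in NT GFP-, at 37.7 (KT13), 33.8 and 43.9 in NT GFP+, at 46.1, 36.0 and 55.1 in anti-PD-L1 GFP- and at 39.2, 34.3 (KT21) and 30.8 in anti-PD-L1 GFP+. These groups overlapped, and the log2 difference by GFP after anti-PD-L1 was -0.40 (SE 0.204, edgeR adjusted p = 0.993) over 12 libraries and -0.39 (SE 0.203, adjusted p = 0.973) over 10. The calcineurin subunit Ppp3ca was at 100, 134 and 119 CPM in NT GFP-, at 121 (KT13), 109 and 122 in NT GFP+, at 151, 111 and 125 in anti-PD-L1 GFP- and at 110, 92.7 (KT21) and 113 in anti-PD-L1 GFP+. Rcan1, which encodes an inhibitor of calcineurin and is itself a target of NFAT, was at 10.6, 7.60 and 7.28 CPM in NT GFP-, at 11.7 (KT13), 9.30 and 10.0 in NT GFP+, at 11.1, 8.55 and 9.35 in anti-PD-L1 GFP- and at 7.14, 11 (KT21) and 6.73 in anti-PD-L1 GFP+. Both genes overlapped between GFP fractions over 12 libraries, while Rcan1 over 10 libraries was lower in both treated GFP+ libraries than in treated GFP- ones. Nfatc3 was at 59.7 to 87.6 CPM and Ppp3cb at 54.5 to 72.3 CPM.

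In the NF-kB branch no gene passed over 12 or 10 libraries on the TMM scale. Rel, the c-Rel subunit induced in activated lymphocytes, was at 27.7, 33.6 and 31.0 CPM in NT GFP-, at 31.0 (KT13), 21.4 and 27.9 in NT GFP+, at 26.5, 22.6 and 20.1 in anti-PD-L1 GFP- and at 33.3, 25.5 (KT21) and 28.7 in anti-PD-L1 GFP+. Within GFP- cells all treated libraries lay below the untreated ones, with a log2 difference of -0.42 (SE 0.192, edgeR adjusted p = 1) over 12 libraries and -0.41 (SE 0.168, adjusted p = 0.584) over 10. Nfkbia, which encodes the inhibitor IkB alpha and is induced by NF-kB, was at 1756, 1344 and 1867 CPM in NT GFP-, at 1665 (KT13), 1253 and 1540 in NT GFP+, at 1188, 1466 and 1660 in anti-PD-L1 GFP- and at 1139, 1107 (KT21) and 1563 in anti-PD-L1 GFP+. All of these groups overlapped. Tnfaip3, the deubiquitinating inhibitor A20, was at 82.0 CPM in KT21 against 208 to 378 CPM in the other 11 libraries. Nfkb1 was at 35.8 CPM in KT21 and at 56.6 to 77.9 CPM elsewhere, and Rela at 80.3 to 103 CPM.

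Of the phosphatases, Ptprc (CD45) was at 359 to 554 CPM, Ptpn6 (SHP-1) at 144 to 225 CPM and Ptpn22 at 193 to 287 CPM. Ptpn11, which encodes SHP-2, was at 50.3, 43.7 and 40.4 CPM in NT GFP-, at 33.7 (KT13), 42 and 53.0 in NT GFP+, at 47.8, 48.6 and 38.3 in anti-PD-L1 GFP- and at 54.4, 65.5 (KT21) and 54.1 in anti-PD-L1 GFP+. The treated GFP+ libraries lay above the treated GFP- and the untreated GFP+ libraries. The log2 differences of Ptpn11 were 0.37 by GFP (SE 0.186, edgeR adjusted p = 0.993) and 0.43 by treatment (SE 0.186, adjusted p = 0.709) over 12 libraries. Without KT13 and KT21, the lowest and the highest library for Ptpn11, they were 0.27 (SE 0.161, edgeR adjusted p = 0.98) and 0.19 (SE 0.177, adjusted p = 0.852).

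Negative adaptors, ubiquitin ligases and lipid kinases gave no call over 12 or 10 libraries on the TMM scale. Dgkz passed by GFP over 12 libraries (edgeR adjusted p = 0.0202) only when genes with as little as 1 count were kept, where 0.772% of all genes passed. Dgkz, a kinase that removes diacylglycerol, was at 82.4, 86.5 and 66.6 CPM in NT GFP-, at 163 (KT13), 88.4 and 75.2 in NT GFP+, at 92.4, 102 and 69.3 in anti-PD-L1 GFP- and at 87.7, 218 (KT21) and 108 in anti-PD-L1 GFP+. Its GFP difference rested on KT13 and KT21, since the averaged log2 difference was 0.56 (SE 0.234, edgeR adjusted p = 0.556) with them and 0.11 without. Dgka, the other diacylglycerol kinase among the 42 genes, was at 101, 104 and 145 CPM in NT GFP-, at 71.1 (KT13), 139 and 90.0 in NT GFP+, at 114, 123 and 140 in anti-PD-L1 GFP- and at 148, 193 (KT21) and 144 in anti-PD-L1 GFP+. Its log2 difference by treatment within GFP+ cells was 0.69 (SE 0.234, edgeR adjusted p = 0.493) over 12 libraries and 0.35 (SE 0.185, adjusted p = 0.632) over 10. Pag1, a membrane adaptor that recruits the inhibitory kinase Csk, was at 40.5, 52.7 and 31.9 CPM in NT GFP-, at 30.4 (KT13), 35.0 and 41.8 in NT GFP+, at 36.6, 41.8 and 44.1 in anti-PD-L1 GFP- and at 27.0, 16.4 (KT21) and 30.6 in anti-PD-L1 GFP+. The treated GFP+ libraries lay below the treated GFP- libraries with or without KT21, by -0.73 on the log2 scale (SE 0.241, edgeR adjusted p = 0.949) over 12 libraries and -0.51 (SE 0.192, adjusted p = 0.716) over 10.

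Cblb, a ubiquitin ligase that limits T cell activation, was at 80.7, 88.5 and 100 CPM in NT GFP-, at 101 (KT13), 104 and 92.5 in NT GFP+, at 112, 95.1 and 110 in anti-PD-L1 GFP- and at 119, 92.4 (KT21) and 137 in anti-PD-L1 GFP+. Ubash3b, which encodes the phosphatase Sts-1, was at 138, 160 and 136 CPM in NT GFP-, at 144 (KT13), 164 and 150 in NT GFP+, at 185, 176 and 149 in anti-PD-L1 GFP- and at 176, 163 (KT21) and 211 in anti-PD-L1 GFP+. Both sets of groups overlapped over 12 libraries, and the averaged log2 differences by treatment were 0.23 for Cblb and 0.25 for Ubash3b (edgeR adjusted p = 0.703 and 0.605). Over 10 libraries the same differences were 0.31 (SE 0.096, edgeR adjusted p = 0.136) and 0.27 (SE 0.0921, adjusted p = 0.2). Cbl was at 27.8 CPM in KT21 and 42 to 68.5 CPM elsewhere, and Ubash3a at 14.7 CPM in KT13 and 23.4 to 38.2 CPM elsewhere. Cd69, the early surface activation marker, was at 129 CPM in KT21 and 174 to 254 CPM elsewhere, with an averaged log2 difference by GFP of -0.26 (SE 0.124, edgeR adjusted p = 0.619) over 12 libraries and -0.13 (SE 0.083, adjusted p = 0.645) over 10.

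After anti-PD-L1, Txk was lower over 10 libraries when averaged over GFP. The averaged log2 difference was -0.45 (SE 0.108, edgeR adjusted p = 0.0322), and over 12 libraries it was -0.40 (SE 0.121, adjusted p = 0.293). limma voom with quality weights gave -0.44 (adjusted p = 0.0446). The call over 10 libraries was made in 4 of 10 fits that left out a further library and was lost without KT15, KT16, KT18, KT22, KT23 or KT24 (adjusted p up to 0.248). Within GFP- cells the difference was -0.59 (SE 0.172, edgeR adjusted p = 0.94) over 12 libraries and -0.58 (SE 0.137, adjusted p = 0.0771) over 10. Within GFP+ cells Txk differed by -0.22 over 12 libraries and -0.32 over 10. It passed in neither fit there, and the treated and untreated GFP+ libraries overlapped over 12. Txk and Grb2 were the 2 of 42 genes without overlap in the same direction in both fractions over 10 libraries, where 4.26% of all genes had none. The comparisons by treatment and by GFP use the same libraries, so the 2 results for Txk share their data.

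The averaged comparison of anti-PD-L1 with NT thus passed 1 of 42 genes over 10 libraries, where 1.36% of all genes passed, and 0 of 42 over 12 libraries in edgeR, where 0.395% passed. Over 12 libraries 7 of 42 had an unadjusted p under 0.05, against 7.67% of all genes, and DESeq2 passed 0 of 42, where 1.3% of all genes passed. Over 10 libraries DESeq2 passed 1 of 42, Txk, where 2.04% of all genes passed. limma voom passed 1 of 42, Txk, where 0.931% of all genes passed. The median log2 difference of the 42 genes was 0.06 over 12 libraries, beside -0.01 for all genes, and 27 of the 42 values were above 0.

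**Figure D4:**
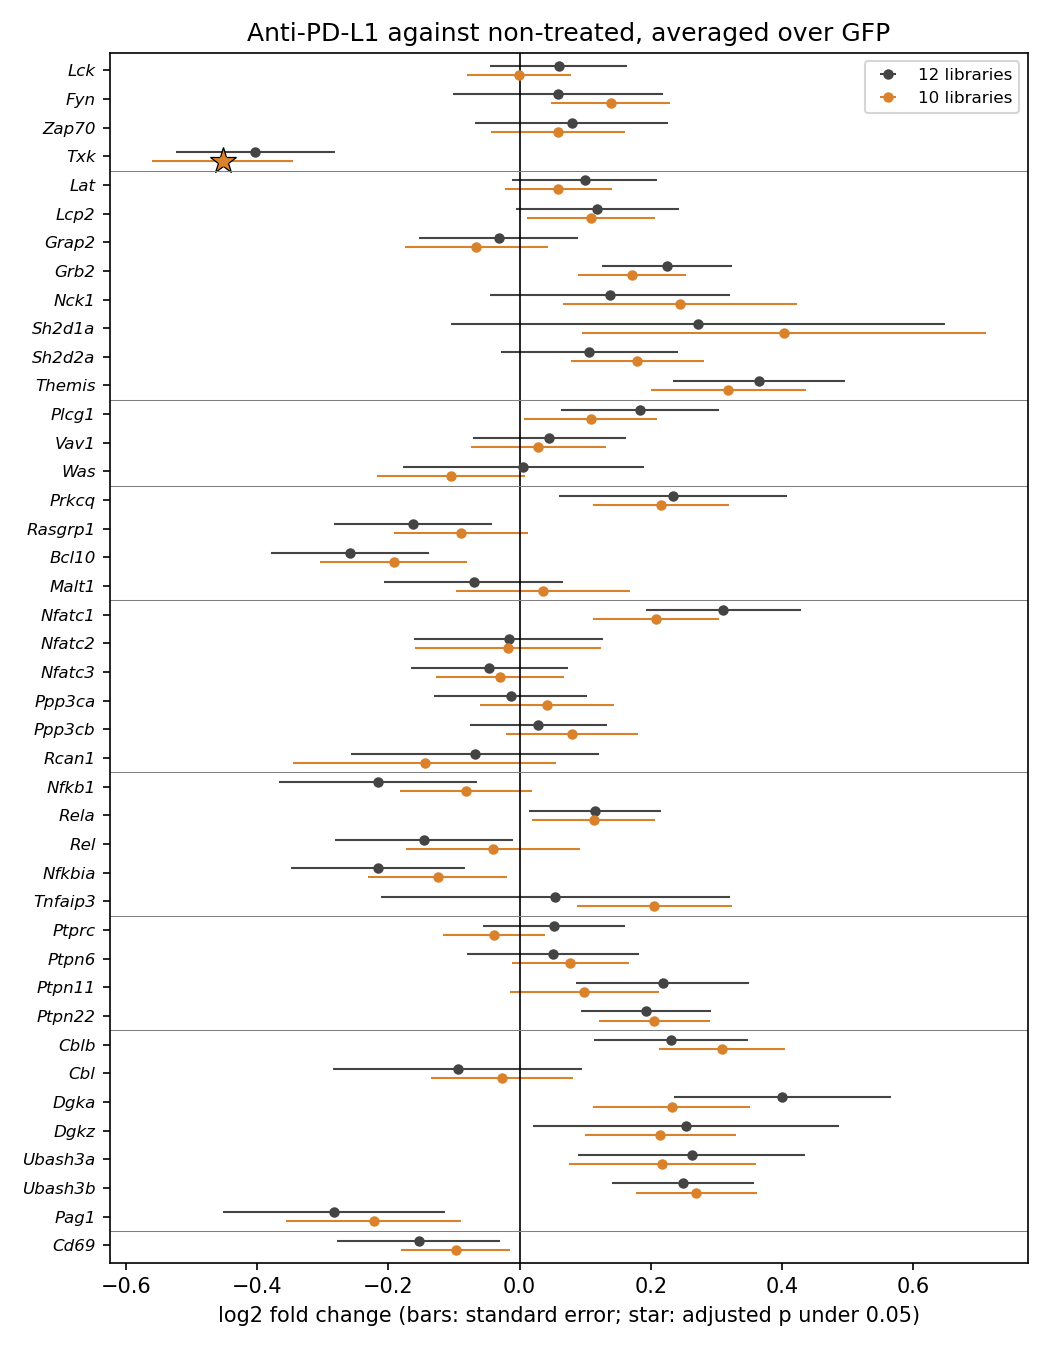
Log2 fold change of the 42 genes between anti-PD-L1 and NT libraries, averaged over GFP, with bars of 1 standard error, over 12 libraries and over 10. The star marks Txk over 10 libraries, at -0.45, and no gene passed over 12.

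In the comparisons between 2 groups, edgeR passed 0 of 42 genes over 12 libraries, where it passed 0.00706% of all genes for GFP in NT, 0.0282% for GFP after anti-PD-L1, 0.0141% for treatment in GFP+ cells and 0% for treatment in GFP- cells. In the same order 1, 3, 6 and 2 of the 42 had an unadjusted p under 0.05, against 6.05%, 4.08%, 6.74% and 3.44% of all genes. DESeq2 over 12 libraries also passed 0 of 42 in each, where 0.374%, 0.375%, 0.697% and 0.233% of all genes passed. limma voom passed 0 of 42 in each as well, where 12, 20, 52 and 34 of all 14173 genes passed. Over 10 libraries edgeR passed 1, 0, 0 and 0 of the 42, where 0.339%, 0.17%, 0.563% and 0.373% of all genes passed. In these fits 7, 5, 5 and 2 had an unadjusted p under 0.05, against 9.24%, 5.34%, 8.54% and 7.22% of all genes. DESeq2 over 10 libraries passed 1, 3, 0 and 1, which were Lat in NT, then Txk, Lat and Grap2 after anti-PD-L1, and Txk in GFP- cells, where 1.1%, 0.502%, 1.04% and 0.617% of all genes with an adjusted p passed.

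The interaction asked whether the GFP difference was itself changed by treatment. It passed 0 of 42 genes in edgeR, where 0% of all genes passed over 12 and 0% over 10 libraries, and 0 and 2 of the 42 had an unadjusted p under 0.05, against 2.08% and 4.29% of all genes. DESeq2 and limma voom passed 0 of 42 as well, where 0 of all genes passed. The 2 genes were Rel, with a log2 interaction of 0.75 (SE 0.265) over 10 libraries and 0.54 (SE 0.271) over 12, and Sh2d2a, with 0.57 (SE 0.203) and 0.42 (SE 0.27), all with an edgeR adjusted p of 1. Rel was lower in GFP+ than GFP- cells in NT and higher after anti-PD-L1 in point estimate, at -0.32 and 0.43 over 10 libraries.

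**Figure D5:**
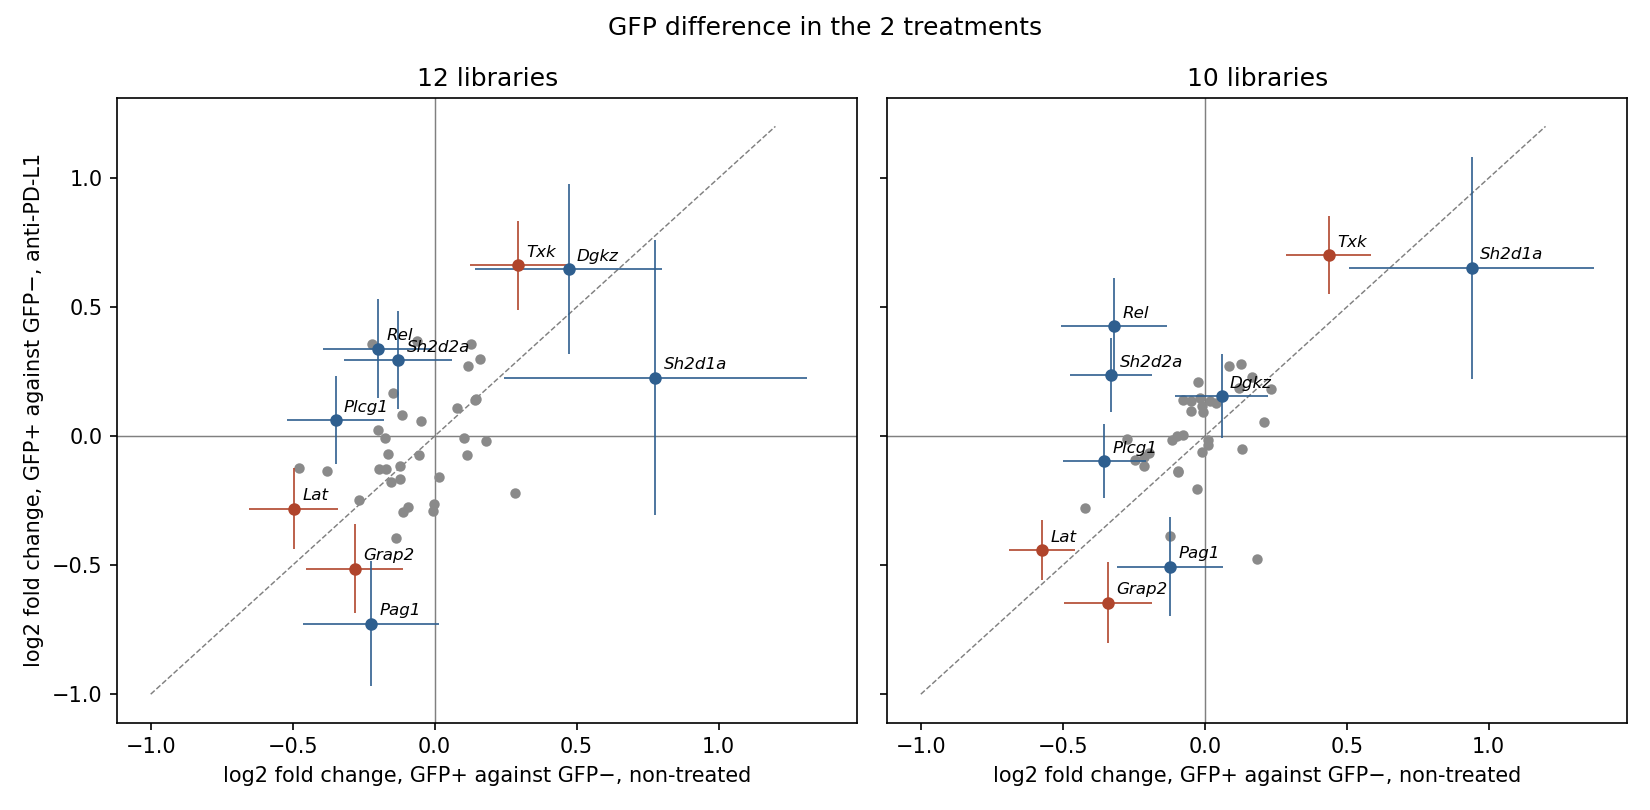
Log2 fold change between GFP+ and GFP- cells after anti-PD-L1 against the same difference in NT cells, 1 point for each of the 42 genes, over 12 and over 10 libraries, with bars of 1 standard error for the named genes and a dashed line of equality. Lat and Grap2 lie below 0 and Txk above 0 on both axes in both panels, and Rel lies at -0.32 and 0.43 over 10 libraries.

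Scaled to the summed T cell markers, the contrast by treatment moved for all genes, with a median log2 difference of -0.30 over 12 libraries in place of -0.01, since these markers were higher in the treated libraries. Txk kept its direction on this scale, at 0.60 by GFP (SE 0.164, edgeR adjusted p = 0.196) and -0.70 by treatment (SE 0.164, adjusted p = 0.046) over 12 libraries, where 0.289% and 2.03% of all genes passed. Grap2 was at 16.8, 18.9 and 19.3 counts per 1000 marker counts in NT GFP-, at 16.4, 18.5 and 16.5 in NT GFP+, at 14.5, 16.4 and 19.5 in anti-PD-L1 GFP- and at 11.5, 11.8 and 12 in anti-PD-L1 GFP+. On this scale its NT groups overlapped and its treated groups did not. The averaged log2 difference by GFP was -0.30 (SE 0.109, edgeR adjusted p = 0.317) over 12 libraries and -0.29 (SE 0.11, adjusted p = 0.115) over 10. The call for Grap2 was thus lost on this scale. Zap70 and Dgkz were higher and Lat lower in GFP+ than in GFP- libraries without overlap in both treatments on this scale. These were 3 of 42 genes, where 2.5% of all genes had no overlap. Of those among all genes, 303 were higher and 52 lower in GFP+ libraries. Zap70 was at 36.0, 30.7 and 28.3 counts per 1000 marker counts in NT GFP-, at 43.1, 36.9 and 37.6 in NT GFP+, at 24.0, 27.4 and 29.1 in anti-PD-L1 GFP- and at 31.0, 37.6 and 33.5 in anti-PD-L1 GFP+. Its GFP+ values were above the GFP- values in both treatments on this scale, unlike on the CPM scale. With marker scaling over 10 libraries, 6 of 42 genes passed by GFP averaged over treatment, where 6.09% of all genes did. Lat was lower at -0.30, and Txk (0.78), Nfatc1 (0.41), Nfkb1 (0.41), Cblb (0.40) and Ubash3b (0.35) were higher, with edgeR adjusted p of 0.041, 0.000456, 0.0195, 0.0337, 0.0228 and 0.032, where the median of all genes was 0.20. By treatment averaged over GFP, 12 of 42 passed, all lower, where 16.3% of all genes passed and the median of all genes was -0.28. They were Lck, Txk, Grap2, Was, Rasgrp1, Bcl10, Nfatc3, Nfkb1, Nfkbia, Ptprc, Pag1 and Cd69, at -0.73 (Txk) to -0.28 (Lck) and edgeR adjusted p of 0.00058 to 0.049. Within GFP+ cells Txk and Pag1 passed by treatment (edgeR adjusted p = 0.0442 and 0.0437), where 3.61% of all genes did. Txk also passed by treatment within GFP- cells and by GFP in each treatment (edgeR adjusted p = 0.00768, 0.029 and 0.0243), where 0.841%, 1.71% and 0.183% of all genes did.

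Beyond the 42 genes, 84 other genes of the pathway were tested over 12 libraries and 83 over 10. None passed in edgeR over 12 libraries, where 8 and 3 had an unadjusted p under 0.05 in the averaged comparisons by GFP and by treatment, against 8.18% and 7.67% of all genes. Over 10 libraries 1 passed by GFP and 1 by treatment. These shares lay near those of all genes, of which 1.08% and 1.36% passed. Sit1, an inhibitory transmembrane adaptor of the receptor, was at 24.9, 25.4 and 33.7 CPM in NT GFP-, at 18.6 (KT13), 18.5 and 20.3 in NT GFP+, at 22.1, 24.9 and 35.4 in anti-PD-L1 GFP- and at 17.7, 19.4 (KT21) and 14.1 in anti-PD-L1 GFP+. The 6 GFP+ libraries lay below the 6 GFP- libraries, KT13 and KT21 included, with an averaged log2 difference of -0.62 (SE 0.153, edgeR adjusted p = 0.159) over 12 libraries and -0.66 (SE 0.155, adjusted p = 0.0335) over 10. Sla, which encodes the adaptor SLAP that promotes turnover of the receptor, was at 140, 143 and 161 CPM in NT GFP-, at 147 (KT13), 149 and 146 in NT GFP+, at 162, 194 and 188 in anti-PD-L1 GFP- and at 192, 159 (KT21) and 205 in anti-PD-L1 GFP+. Apart from KT21 the treated libraries lay above the untreated ones, with an averaged log2 difference by treatment of 0.31 (SE 0.103, edgeR adjusted p = 0.374) over 12 libraries and 0.36 (SE 0.0855, adjusted p = 0.0311) over 10.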

How the data were processed

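The authors deposited 1 table of raw counts for 12 libraries. Before deposit the reads had been trimmed, HISAT2 had aligned them to mm10, and featureCounts had assigned them to genes. The submitters' processing notes name cutadapt 1.7 and Subread 1.6.4, and the methods Cutadapt 2.1 and Rsubread 2.10.5. The Ensembl release and the use of strand are not given in the sources used here. Symbols came from GENCODE vM21 and matched 52403 of 52636 identifiers, and promoter windows from RefSeq (GRCm38.p6).

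Counts were filtered with filterByExpr, TMM-normalized and tested with edgeR 4.0.16 (quasi-likelihood F test, 1 coefficient for each of 4 groups, Benjamini-Hochberg adjustment over all genes, call at adjusted p under 0.05) in 7 comparisons. limma 3.58.1 (voom with quality weights) and DESeq2 1.42.0 served as alternatives. Scripts were tested on simulated data. The genes and lists were chosen with earlier results of these data known. Per-library values were given for genes called over 12 or 10 libraries and, per comparison, for up to 3 higher and 3 lower with the smallest p. Grb2, Sh2d2a, Klrb1c, Klre1 and Ncr1 were added after their values were seen. So were genes named for 1 deviating library, genes called only with marker scaling, and the T cell marker scaling itself. Reads carry no molecular identifiers here. Replicates differed by more than sampling noise, so each library counted as 1 sample.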

Additional observations from a re-analysis of the deposited data

How the results depend on the processing

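The number of the 42 signaling genes called was 0 in each of the 7 comparisons over 12 libraries, and the alternatives that changed it were these. Leaving out KT13 and KT21 gave 1 for GFP in NT, 3 for GFP averaged over treatment and 1 for treatment averaged over GFP. DESeq2 over 10 libraries gave 1 for GFP in NT, 3 for GFP after anti-PD-L1, 1 for treatment in GFP- cells, 3 for GFP averaged and 1 for treatment averaged, and over 12 libraries 1 for GFP averaged. limma voom with quality weights gave 3 and 1 for the averaged comparisons. A filter of 1 count gave 1 for GFP averaged (Dgkz). Scaling to the T cell markers over 10 libraries gave 1 for GFP in NT, 1 for GFP after anti-PD-L1, 2 for treatment in GFP+ cells, 1 for treatment in GFP- cells, 6 for GFP averaged and 12 for treatment averaged, and over 12 libraries 1 for treatment averaged. Fits that left out 1 library gave 0 to 3 calls for GFP averaged and 0 to 1 for each of the other 5 comparisons except the interaction, which stayed at 0, and every such call came from fits without KT13 and KT21. Why these counts differ was not tested.

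Among 42 log2 fold changes of named genes under 1410 alternative fits, 1335 kept their direction and side of the threshold, 66 newly passed and 9 changed sign. Leaving out 1 of the 12 libraries changed 0 signs. The 6 sign changes among leave-one-out fits came from those that left out 1 library besides KT13 and KT21: Dgkz by GFP in NT went to -0.059 without KT15 and -0.038 without KT18, Dgkz by GFP after anti-PD-L1 to -0.0035, Rasgrp1 by treatment in GFP+ cells to 0.0037, Zap70 by GFP averaged to -0.023 and the interaction of Dgka to -0.051. Over both kinds of fit the other ends of these ranges were 0.68, 0.89, -0.35, 0.32 and 0.89. Scaling to the T cell markers over 10 libraries gave -0.16 for Ptpn11 by treatment in GFP+ cells, and -0.071 for Nfatc1 and -0.047 for Dgka by treatment averaged. None of these passed in the main comparison. Over all genes, calls by GFP averaged went from 44 over 12 libraries to 159 over 10, 158 and 256 with DESeq2, 126 with limma voom, 204 with a filter of 1 count and 898 with marker scaling over 10. Calls by treatment averaged went from 56 to 201, 181 and 301, 132, 223 and 2404 under the same alternatives, and to 288 with marker scaling over 12.

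No paired analysis was possible because the labels give each library its own code and no number is shared between groups. The codes alternate between GFP+ and GFP-, and whether neighboring codes are fractions of the same pooled tumors is not given in the sources used here. If they are, the standard errors and p-values by GFP leave that pairing out. There were 3 libraries in a group, and 2 in the GFP+ groups without KT13 and KT21. In comparisons of 2 groups the standard errors of most of the 42 genes were over 0.1 on the log2 scale. Differences well above that size also did not pass, such as Pag1 by GFP after anti-PD-L1, at -0.73 over 12 libraries. Sh2d1a, with as few as 22 counts in a library, had the largest standard error of the named genes.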
